A study of Mus musculus with 6 samples.

Results

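The genes that encode Wnt ligands, Frizzled receptors, R-spondins and the secreted inhibitors of the Sfrp and Dkk families were described in bulk RNA-sequencing of whole mouse lung. They were chosen by gene symbol alone (Wnt, Fzd, Rspo, Sfrp or Dkk followed by a number and at most 1 letter), and 40 of the 49568 symbols in the deposited table were members: 18 Wnt, 10 Fzd, 4 Rspo, 4 Sfrp and 4 Dkk genes. Lungs came from 3 TNF-Tg and 3 WT female mice, 4 months old, on a C57BL/6 background, with 1 mouse per library. TNF-Tg mice carried 1 copy of a human TNF transgene, whose promoter is not given in the sources used here, and are a model of inflammatory arthritis and pulmonary hypertension. WT mice were littermates without it. Poly(A) RNA was sequenced from the whole organ, although a label describes the material as primary cells.

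Wnt proteins are lipid-modified signals that act over short distances on Frizzled receptors and a co-receptor, Lrp5 or Lrp6. In the main branch they stop the destruction of beta-catenin, which then switches on target genes together with TCF/LEF factors, and in other branches they steer cell polarity and calcium. R-spondins strengthen the signal by keeping Frizzled on the cell surface, while Sfrp proteins bind the ligand and Dkk proteins bind the co-receptor. In the lung the pathway is known for its part in branching, in the alveolar epithelium and in the vessel wall.

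Total counts ranged from 25396923 to 32529408 per lung, so that 3 counts, the lowest level treated as detected, were 0.0922 to 0.118 CPM (counts scaled to the total of each library). Mouse Tnf had 106, 213 and 405 counts in the TNF-Tg lungs and 16, 14 and 35 in the WT lungs. The human transgene itself is not a row of the table, so the label could be checked only by the mouse gene. All 6 lung identity markers (surfactant, alveolar, club, ciliated and Nkx2-1 genes) were detected in every lung, and 5 of them were lower in TNF-Tg lungs (summed level 498887 to 653881 normalized counts against 1011503 to 1229358). In 3 libraries some gene groups stood apart. WT replicate 1 had the highest level of all 8 squamous epithelium genes (summed level 106197 normalized counts, against 343 to 955 in the other 5 lungs) and of all 8 skeletal muscle genes (59148 against 471 to 1460), and TNF-Tg replicate 1 gave 5.22% of its counts to Gm42418, a locus that overlaps ribosomal RNA, where the other lungs gave 0.0774 to 0.274%. TNF-Tg replicate 3 had the fat cell genes Adipoq at 327 and Plin1 at 192 normalized counts, where the other TNF-Tg lungs had 17.1 and 12.4 and 14.5 and 5.17, and the WT lungs 227 to 584 and 157 to 275. For members and named pathway genes whose call or direction changed without 1 of these libraries, either values or the number of alternatives that lost the call are given.

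Of the 40 members, 32 (80%) passed the filter on low counts and were tested. Most of those that differed were lower in TNF-Tg lungs: 18 members fell and 2 rose at an adjusted p under 0.05, and 12 did not pass. These counts include Rspo2, which passed the filter only through the TNF-Tg lungs, and Rspo4, which passed it only through the WT lungs. The 20 called members were 62.5% of those tested, where 47.4% of all 19199 tested genes were called (24% higher and 23.4% lower). The median log2 fold change (TNF-Tg minus WT) of the tested members was -0.63, against 0.03 over all tested genes. In whole lung, fewer cells of a type and less RNA per cell cannot be told apart.

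Among the 18 Wnt ligands described, 13 were tested, of which 8 fell and 1 rose. Among 9 tested Frizzled receptors 5 fell and none rose, with 4 not past the threshold. Among 4 R-spondins 2 fell and 1 rose, among 4 Sfrp genes 3 fell, and neither of the 2 tested Dkk genes passed. The normalized counts of the TNF-Tg and WT lungs did not overlap in 23 members, 18 lower and 5 higher in TNF-Tg lungs, where 58.7% of all tested genes had groups apart (28.2% lower and 30.5% higher). Without WT replicate 1 the number of called members was again 20, but 5 rose and 15 fell, and 17 of them were shared with the fit on all lungs (37.8% of all genes were then called, 18% higher and 19.8% lower). With replicate 1 of both genotypes left out, 18 were called, 3 higher and 15 lower (31.2% of all genes, 13.8% higher and 17.4% lower).

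**Figure D1:**
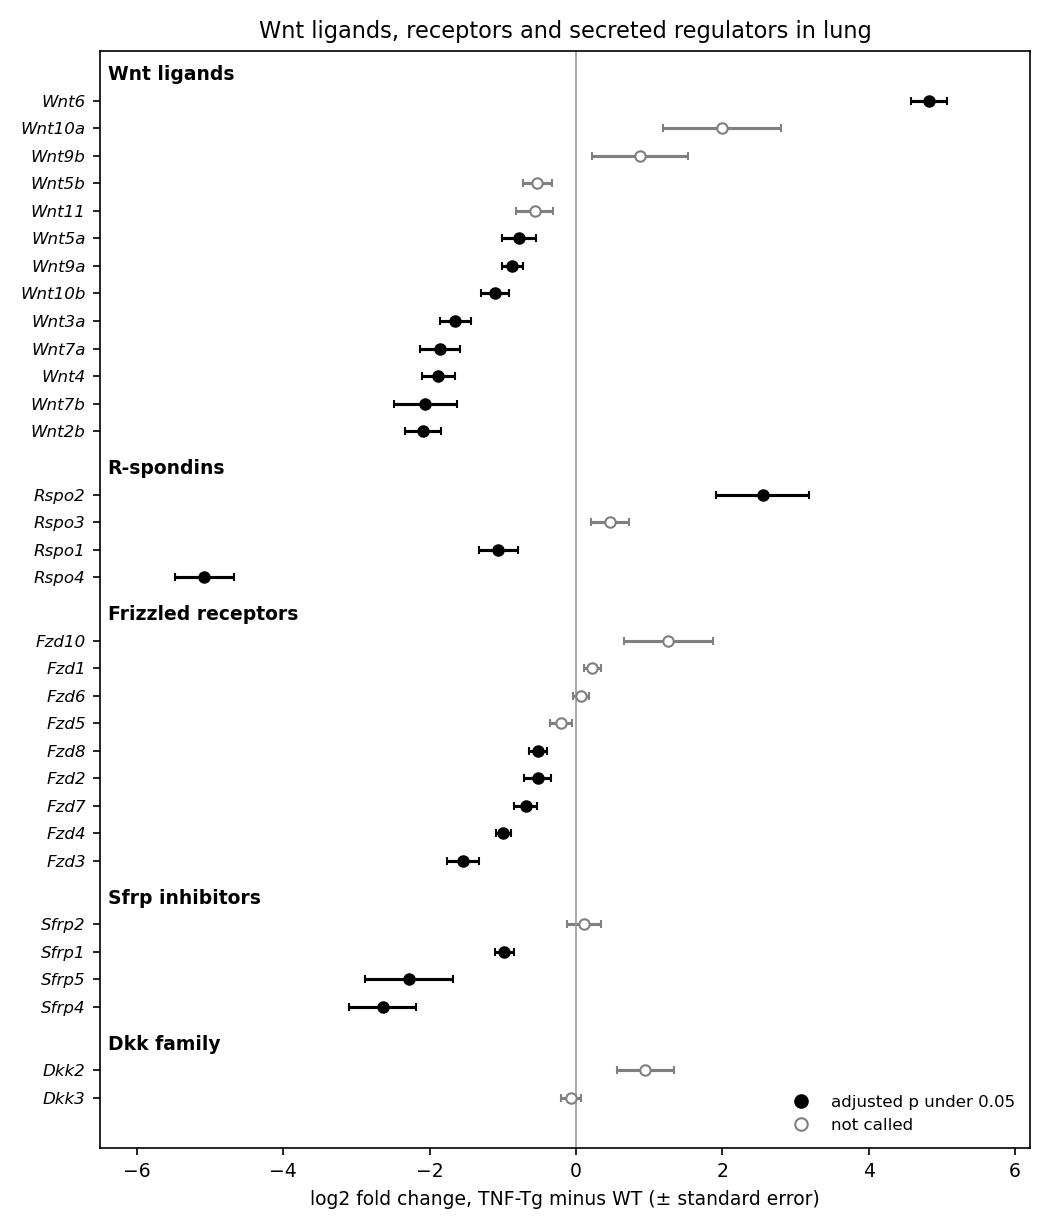
Log2 fold change of each of the 32 tested members (x axis, TNF-Tg minus WT, bars are the standard error), grouped by family and ordered by value. Filled points passed an adjusted p under 0.05: 18 of them lie left of 0, and Wnt6 at 4.82 and Rspo2 at 2.55 lie right of it.

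The stretches of DNA before RefSeq starts of the members were read to show what the members shared that the choice by name did not use. RefSeq windows of 250 bases upstream of the start (build GRCm38.p6) were found for 26 of the 40 members, 29 starts in all. They were rich in GC (median 69.6%, against 52.4% over 32851 promoters) and in CpG pairs (median 22 against 6). The TCF/LEF motif, spelled as CTTTGAA or CTTTGAT or CTTTGTA or CTTTGTT and read on both strands, was in 4 of the 29 windows (13.8%, against 14.8% of all promoters), and the NF-kB consensus was in 1 (3.45%, against 3.9%). No member window held both motifs. A GENCODE exon overlapped 11 of the 29 windows, so that these were not upstream of every annotated transcript, and of the other 18 windows 3 held the TCF/LEF motif and 1 the NF-kB consensus. None of the 4 windows printed here overlapped an exon. The windows of the ligand that rose most, of the R-spondin that fell most, and of a receptor and a ligand that fell and held 1 of these motifs are printed 5′ to 3′ on the gene's strand, with motif matches in capitals.
Wnt6, chr1:74771642-74771891, plus strand, no match: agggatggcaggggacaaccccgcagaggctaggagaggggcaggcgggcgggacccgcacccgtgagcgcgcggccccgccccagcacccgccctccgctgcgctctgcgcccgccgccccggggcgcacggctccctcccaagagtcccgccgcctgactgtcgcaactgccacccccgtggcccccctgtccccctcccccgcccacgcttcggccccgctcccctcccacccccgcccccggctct
Rspo4, chr2:151842677-151842926, plus strand, no match: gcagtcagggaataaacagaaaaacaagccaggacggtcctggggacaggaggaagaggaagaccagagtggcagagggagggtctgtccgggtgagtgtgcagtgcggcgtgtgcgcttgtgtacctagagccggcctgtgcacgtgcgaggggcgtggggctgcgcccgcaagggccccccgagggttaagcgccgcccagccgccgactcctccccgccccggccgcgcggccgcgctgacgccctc
Fzd7, chr1:59481897-59482146, plus strand, a TCF/LEF match that begins 130 bases before the start: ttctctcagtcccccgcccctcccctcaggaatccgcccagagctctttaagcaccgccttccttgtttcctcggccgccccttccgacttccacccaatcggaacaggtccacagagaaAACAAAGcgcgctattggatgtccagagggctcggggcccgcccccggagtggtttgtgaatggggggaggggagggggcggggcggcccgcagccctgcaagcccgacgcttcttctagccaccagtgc
Wnt10b, chr15:98778151-98778400, minus strand, NF-kB matches that begin 204 and 40 bases before the start: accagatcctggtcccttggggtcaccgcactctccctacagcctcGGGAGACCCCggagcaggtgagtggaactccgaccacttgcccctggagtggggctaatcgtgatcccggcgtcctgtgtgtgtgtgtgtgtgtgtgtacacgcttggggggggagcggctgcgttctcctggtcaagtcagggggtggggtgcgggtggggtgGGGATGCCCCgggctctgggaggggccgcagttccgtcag
A match is a description of the letters and no site of binding was measured.

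Wnt6, a ligand of the beta-catenin branch (chromosome 1, 74771892 to 74785322 on the plus strand of GRCm38, GENCODE M21), was the described ligand that rose. It had 331, 356 and 409.7 normalized counts in the TNF-Tg lungs and 15.3, 14.4 and 8.89 in the WT lungs. Every TNF-Tg lung was far above every WT lung. The difference was 28.3-fold, a log2 fold change of 4.82 (SE 0.24, adjusted p = 6.03e-06 in the edgeR fit over all genes), and with each lung left out in turn it stayed between 4.61 and 4.94.

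Wnt10a, a ligand needed for teeth and hair, lies 6.19 kb after the end of Wnt6 on the same strand (chromosome 1, 74791516 to 74804179). The normalized counts were 58.0, 79.6 and 44.4 in the TNF-Tg lungs and 39.2, 1.92 and 4.44 in the WT lungs. The groups were apart, but WT replicate 1, the lung with the squamous and skeletal muscle transcripts, was close to the TNF-Tg lungs. The log2 fold change was 2.00 (SE 0.81) and did not pass (adjusted p = 0.0731). Without WT replicate 1 it was 4.16 with an adjusted p of 0.000728, and it also passed with DESeq2 (adjusted p = 0.0192) and with no filter on low counts (0.0351). The part of the squamous and muscle transcripts in this value was not tested. Of the other neighbouring ligand genes, Wnt3a and Wnt9a, 16.2 kb apart on chromosome 11, both fell. Wnt10b fell while Wnt1, 11.7 kb away on chromosome 15, was too low to be tested, and so was Wnt3, 24.3 kb from Wnt9b on chromosome 11.

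Wnt4, a ligand of kidney and reproductive tract development (chromosome 4, 137277489 to 137299726, plus strand), had 232, 189 and 186 normalized counts in the TNF-Tg lungs and 903, 503 and 826 in the WT lungs. It was 3.68-fold lower in TNF-Tg lungs with no overlap (log2 fold change -1.88, SE 0.23, adjusted p = 0.000347). Wnt3a, the ligand most used to activate beta-catenin in culture, had 112, 74.5 and 116 against 337, 344 and 268 in WT. This too was a fall without overlap (log2 fold change -1.65, SE 0.21, adjusted p = 0.000492).

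Wnt7a and Wnt7b form a pair of close relatives that act on epithelium, mesenchyme and vessels, Wnt7b being made by the epithelium of the developing lung. Wnt7a had 96.3, 45.5 and 86.8 normalized counts in the TNF-Tg lungs and 245, 306 and 277 in the WT lungs (log2 fold change -1.86, SE 0.27, adjusted p = 0.000956). For Wnt7b the values were 128, 43.4 and 48.1 against 413, 215 and 273 (log2 fold change -2.06, SE 0.44, adjusted p = 0.0056). Both fell, and in both genotypes replicate 1 was the highest lung for Wnt7b, and without TNF-Tg replicate 1 its log2 fold change was -2.74 (adjusted p = 0.000834).

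Wnt2b, a ligand of the mesenchyme of the embryonic lung field, fell by about as much as Wnt7b. The normalized counts were 44.8, 63.1 and 38.7 in the TNF-Tg lungs against 239, 173 and 213 in the WT lungs (log2 fold change -2.09, SE 0.24, adjusted p = 0.000286). Wnt10b, a ligand that favours bone over fat, had 145, 157 and 177 against 261, 381 and 387 (log2 fold change -1.10, SE 0.19, adjusted p = 0.00209). Wnt9a, a ligand of the developing joint, had 137, 155 and 146 against 261, 279.9 and 262 (log2 fold change -0.87, SE 0.14, adjusted p = 0.00153). In all 3 genes every TNF-Tg lung lay below every WT lung.

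Ligands of the polarity and calcium branches had log2 fold changes between -0.78 and -0.53. Wnt5a, the main ligand of these branches, had 189.9, 165 and 261 normalized counts in the TNF-Tg lungs and 411, 391 and 256 in the WT lungs, so that the groups overlapped through TNF-Tg replicate 3 and WT replicate 3. Its log2 fold change of -0.78 (SE 0.24) passed (adjusted p = 0.0267), but not without TNF-Tg replicate 1 (0.0706), TNF-Tg replicate 2 (0.0923), WT replicate 1 (0.082) or WT replicate 2 (0.0877). Wnt11 had 291, 192 and 189 against 278, 267 and 445 and did not pass (log2 fold change -0.56, SE 0.26, adjusted p = 0.103), while without TNF-Tg replicate 1 it did (-0.83, adjusted p = 0.0383). Wnt5b, with 58.0, 73.4 and 62.3 against 83.1, 99.7 and 96.9, had groups apart but an adjusted p of 0.0627.

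Wnt9b, a ligand of kidney ducts, had 7.55 to 38.3 normalized counts in the TNF-Tg lungs and 5.75 to 14.3 in the WT lungs and did not pass (log2 fold change 0.88, adjusted p = 0.304), and only TNF-Tg replicate 2 was above the WT range. The remaining ligands stayed under the filter: Wnt16 reached at most 4 counts in any lung, and Wnt1, Wnt3, Wnt8a and Wnt8b at most 2.

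To compare the ligands with each other, each value was taken as CPM per kilobase of exon, here with the library total scaled as for the normalized counts. On this scale Wnt4 had the highest mean level of the described ligands in WT lungs (5.87 ± 1.67, SD, n = 3), followed by Wnt3a (3.79 ± 0.502) and Wnt10b (3.34 ± 0.692). The SD ranges of neighbours in this order overlap, and in WT replicate 2 Wnt3a was above Wnt4 (15.9% against 15.3% of the summed ligand level). In TNF-Tg lungs Wnt6 was the highest (5.52 ± 0.608) and the next, Wnt11 (1.79 ± 0.466) and Wnt4 (1.60 ± 0.203), overlapped within their spread. Wnt6 made up 27.8 to 34.7% of the summed level of the described ligands in the TNF-Tg lungs and 0.467 to 0.837% in the WT lungs, where it ranked 12 of 18 by the mean. Wnt10a ranked just above it through WT replicate 1 (1.79%), but in WT replicates 2 and 3 Wnt10a (0.0991 and 0.208%) was below Wnt6 (0.837 and 0.467%). Wnt4 made up 8.23 to 10.2% in TNF-Tg and 15.3 to 24.2% in WT lungs. The summed level of the described ligands was 17.5 ± 0.724 in TNF-Tg and 28.0 ± 1.84 in WT lungs, and without Wnt6 it was 12.0 ± 0.887 and 27.8 ± 1.85. These sums are descriptions and were not tested.

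**Figure D2:**
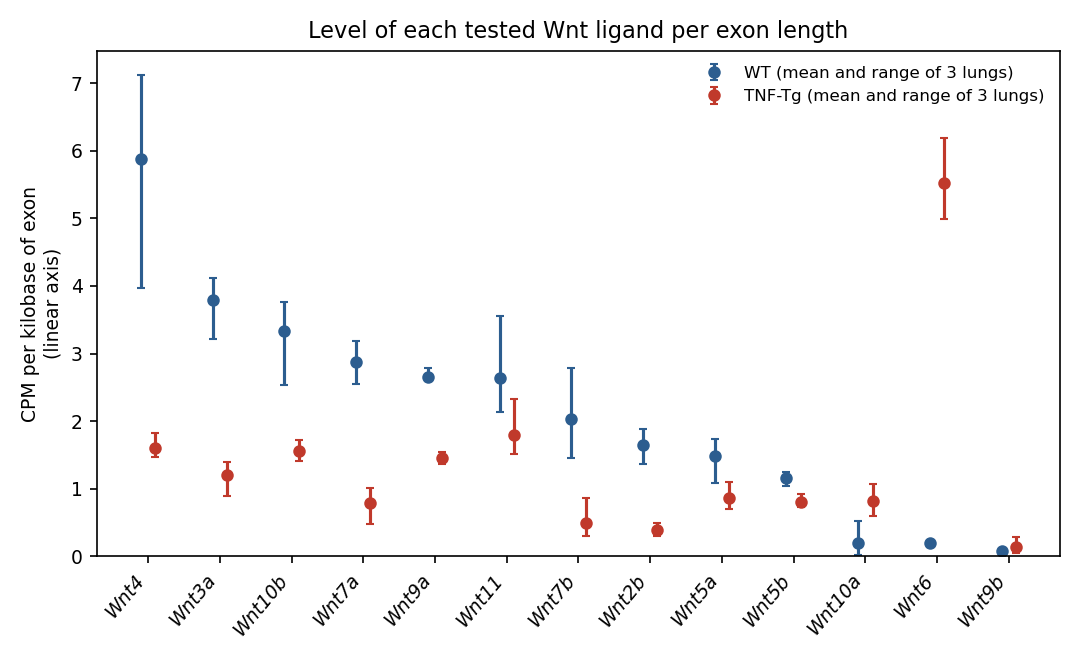
Level of each described Wnt ligand that was tested (y axis, linear, CPM per kilobase of exon, on scaled totals). The mean is a point and the range of 3 lungs a bar, ordered by the WT mean. Wnt4 has the highest WT mean at 5.87, with a range that meets that of Wnt3a. In TNF-Tg lungs Wnt6 at 5.52 stands above the other ligands shown, none of which exceeds 1.79 on average.

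The R-spondins, which bind the receptors Lgr4, Lgr5 and Lgr6, moved in both directions. Rspo4, known for nail growth (chromosome 2, 151842927 to 151874668, plus strand), had exactly 1 count in each TNF-Tg lung and 46, 43 and 41 counts in the WT lungs. Its scaled level was 37.5 times higher in WT lungs, with a 95% exact interval of 12.6 to 184 that covers counting error only. The fitted log2 fold change of -5.08 (SE 0.41, adjusted p = 4.56e-05) depends on the prior count of the fit, and the gene passed the filter only through the WT lungs.

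Rspo2, which supports branching of the embryonic lung (chromosome 15, 43020794 to 43170826, minus strand), went the other way. It had 38.2, 19.6 and 21.7 normalized counts in the TNF-Tg lungs and 9.56, 0.958 and 2.67 in the WT lungs, the groups being apart, and passed the filter only through the TNF-Tg lungs. The rise was 5.86-fold (log2 fold change 2.55, SE 0.64, adjusted p = 0.0120), on low counts: between 1 and 10 in WT and between 19 and 29 in TNF-Tg lungs. Without WT replicate 1, the highest WT lung, the log2 fold change was 3.72 (adjusted p = 0.00383). Rspo4 was thus under the floor of 3 counts in every TNF-Tg lung. Rspo2 was at or under it in WT replicates 2 and 3 and had 10 counts in WT replicate 1.

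Rspo1, which directs ovary development and has the highest level per length of the 4, had 311, 176 and 216 normalized counts in the TNF-Tg lungs and 439.6, 365 and 656 in the WT lungs. It fell with no overlap (log2 fold change -1.06, SE 0.27, adjusted p = 0.0133), and without TNF-Tg replicate 2 the adjusted p was 0.0508. WT replicate 3, the highest lung for Rspo1 and for Wnt11, also had the highest summed level of 6 mesothelium markers (15746 normalized counts, against 10013 to 10758 in the other WT lungs and 4071 to 6537 in the TNF-Tg lungs). The part of the mesothelium in these values was not tested. Rspo3, with 48.8, 60.0 and 47.2 against 46.8, 31.6 and 34.7, had groups just apart and did not pass (log2 fold change 0.46, SE 0.26, adjusted p = 0.173). The summed R-spondin level per length was 4.75 ± 1.21 in TNF-Tg and 9.31 ± 2.53 in WT lungs.

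Fzd4, a Frizzled receptor of endothelium that binds Wnt proteins and norrin (chromosome 7, 89404355 to 89413134, plus strand), was the receptor with the highest level per length in both genotypes. The normalized counts were 2876, 2332 and 2477 in the TNF-Tg lungs and 5006, 5099 and 5180.5 in the WT lungs. The WT lungs lay within a narrow range and all TNF-Tg lungs were below it, 1.99-fold lower on average in the fit (log2 fold change -0.99, SE 0.11, adjusted p = 0.000187). The 7 endothelial markers all fell as well, from a summed level of 72121 to 87339 in WT to 36152 to 42334 in TNF-Tg lungs, and their part in the fall of Fzd4 was not tested.

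Fzd3, best known from axon guidance, fell with 29.0, 29.0 and 24.5 normalized counts against 76.4, 83.4 and 80.9 (log2 fold change -1.54, SE 0.22, adjusted p = 0.0008). Fzd7, a receptor of the beta-catenin branch in stem cells, had 905, 687 and 698 against 1257, 1411 and 1018 (log2 fold change -0.69, SE 0.16, adjusted p = 0.00784). Both receptors had groups that did not overlap. Smaller falls were seen in Fzd8, with 236, 250.3 and 259.6 against 384, 354 and 331 (log2 fold change -0.52, SE 0.13, adjusted p = 0.0115), and in Fzd2, with 386, 299.9 and 466 against 592, 598 and 469 (log2 fold change -0.52, SE 0.18, adjusted p = 0.0438). TNF-Tg replicate 3 and WT replicate 3 nearly met for Fzd2, whose call was lost in 7 of 14 alternatives, among them leaving out WT replicate 1 (adjusted p = 0.11). Fzd8 lost its call when replicate 1 of both genotypes was left out (adjusted p = 0.104).

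The other Frizzled receptors did not pass. Fzd1 had 1167, 1125 and 1252 normalized counts in the TNF-Tg lungs and 1018, 1131 and 884 in the WT lungs (log2 fold change 0.22, SE 0.11, adjusted p = 0.135), and Fzd6, a receptor of hair and cell orientation, had 931 to 1112 against 951 to 1092 (log2 fold change 0.06, SE 0.11, adjusted p = 0.661). For Fzd5 the ranges were 413 to 455 and 401 to 581 (log2 fold change -0.21, adjusted p = 0.298). Fzd10, at 11.4 to 26.4 against 2.67 to 16.2, had a log2 fold change of 1.26 (SE 0.61, adjusted p = 0.120) that was 2.09 (adjusted p = 0.0334) without WT replicate 1. Fzd9 reached at most 5 counts in any lung and was not tested.

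In the summed level per length of the 10 receptors, 58.6 ± 3.66 in WT and 41.9 ± 2.10 in TNF-Tg lungs, the order of the genes differed between genotypes. In WT lungs Fzd4 made up 40.5 to 46.6%, followed by Fzd7 (13.6 to 16.6%), Fzd1 (12.7 to 14.4%) and Fzd6 (11.1 to 12.1%), with Fzd7 and Fzd1 overlapping. In TNF-Tg lungs Fzd4 made up 28.5 to 32.6%, followed by Fzd1 (21.2 to 23.1%), Fzd6 (14.7 to 19.3%) and Fzd7 (11.9 to 15.2%), with Fzd6 and Fzd7 overlapping.

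**Figure D3:**
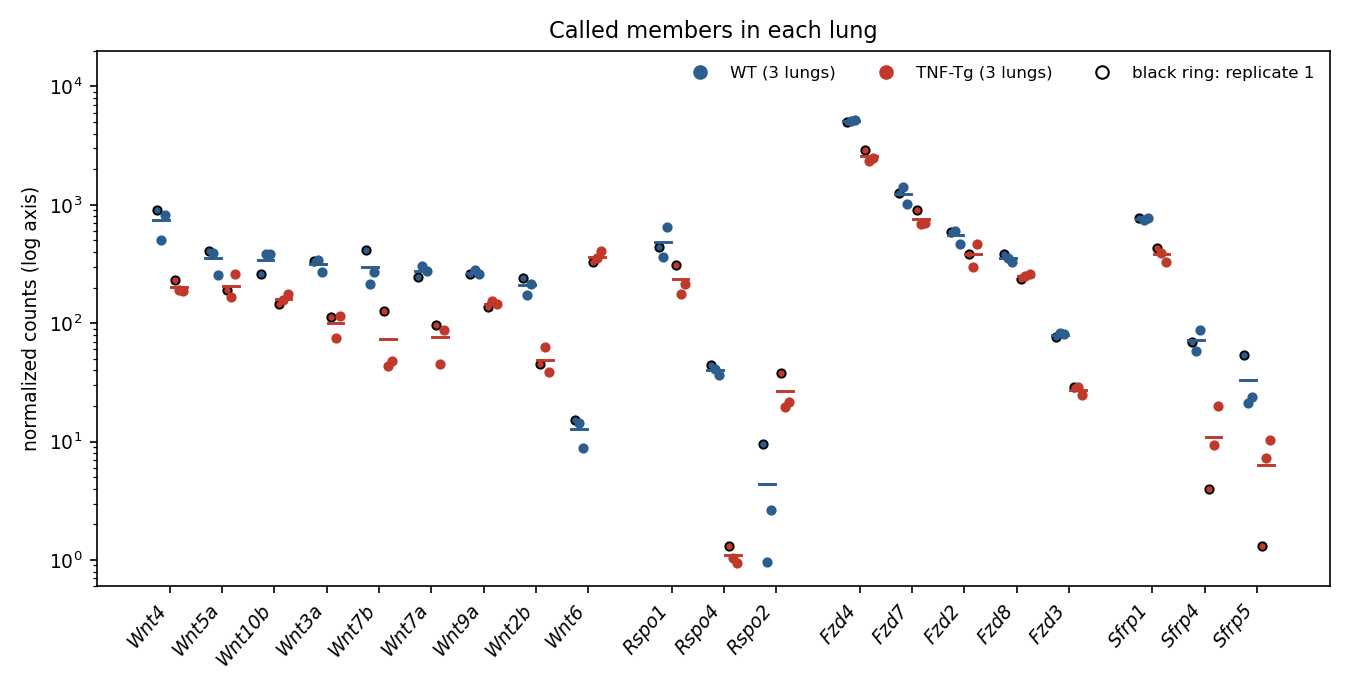
Normalized counts of the 20 called members in each lung (y axis, log scale; blue WT, red TNF-Tg, short lines the mean of 3 lungs, black rings replicate 1 of each genotype). Wnt6 and Rspo2 are the genes whose red points lie above the blue ones, and Wnt5a is the gene whose points overlap.

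The Sfrp proteins carry a domain like that of Frizzled with which they bind Wnt proteins outside the cell. Sfrp1 (chromosome 8, 23411502 to 23449632, plus strand) had 434, 391 and 327 normalized counts in the TNF-Tg lungs and 766, 739 and 767 in the WT lungs, a fall with no overlap (log2 fold change -0.98, SE 0.13, adjusted p = 0.000557). Sfrp4, an inhibitor known from bone, had 3.96, 9.31 and 19.8 against 69.8, 58.5 and 88.0 (log2 fold change -2.64, SE 0.46, adjusted p = 0.00213). Of the 3 TNF-Tg lungs 1, replicate 3, was over the filter level of 0.325 CPM. Without that lung, the TNF-Tg lung with the highest fat cell genes, the log2 fold change was -3.39 (adjusted p = 0.00139), and the part of fat tissue in these values was not tested.

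Sfrp5, an inhibitor made in fat tissue, had 1.32, 7.24 and 10.4 normalized counts in the TNF-Tg lungs and 53.5, 21.1 and 24.0 in the WT lungs. WT replicate 1 was the highest lung. The log2 fold change of -2.28 (SE 0.60, adjusted p = 0.0150) was -1.77 (adjusted p = 0.0507) without it, and -1.38 (adjusted p = 0.0698) with replicate 1 of both genotypes left out. Without TNF-Tg replicate 3, again the highest TNF-Tg lung, it was -2.83 (adjusted p = 0.0207). Of the 5 fat cell genes, Fabp4 held most of the summed level in TNF-Tg lungs (1152 to 1728 normalized counts against 460.03 to 1223 in WT lungs, adjusted p = 0.0547), and the other 4 summed to 105 to 921 against 884 to 1785. Of these Cidec fell (log2 fold change -1.82, adjusted p = 0.0252), Adipoq and Plin1 had -1.64 and -1.61 and did not pass (adjusted p = 0.214 and 0.197), and Lep was not tested. Their part in the fall of Sfrp5 was not tested. Sfrp2 had 315, 188 and 309 against 241, 212 and 298, the groups overlapped, and no difference was detected (log2 fold change 0.11, SE 0.23, adjusted p = 0.712). In the level per length the family summed to 7.26 ± 1.09 in TNF-Tg and 10.7 ± 0.937 in WT lungs.

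In the Dkk family none of the 4 genes was called. Dkk3, a relative that differs from the other Dkk proteins in not blocking the Wnt co-receptor, was the most abundant secreted regulator among the members (level per length 24.7 ± 1.74 in TNF-Tg and 25.9 ± 4.16 in WT lungs). The normalized counts were 2336, 2506 and 2689 against 3010.1, 2711 and 2176, and the groups overlapped (log2 fold change -0.07, SE 0.13, adjusted p = 0.694). Dkk2, which binds Lrp5 and Lrp6, had 46.1, 39.3 and 36.8 against 33.4, 17.3 and 12.4. Its groups were apart but it did not pass (log2 fold change 0.95, SE 0.38, adjusted p = 0.0729), and without WT replicate 1 it did (1.42, adjusted p = 0.0153). Dkk1 reached at most 5 counts and Dkk4 at most 1, and neither was tested.

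Around the members, 6 lists of pathway genes held 78 different tested genes, of which 55 were called, 42 lower and 13 higher (70.5%, against 47.4% of all genes). Lgr5, Znrf3, Rnf43, Notum and Apcdd1 stood in more than 1 list, so the counts by list below add up to more than these totals. Of all genes 24% were called higher and 23.4% lower. Without WT replicate 1 the pathway calls were 8 higher and 39 lower (18% and 19.8% of all genes), without TNF-Tg replicate 1 they were 7 and 39 (17.2% and 20.1%), and without WT replicate 2 they were 7 and 38 (18.3% and 19.5%). Co-receptors and genes of receptor turnover were called in 9 of 12 (8 lower, 1 higher, median log2 fold change -0.61). Lrp5, the co-receptor, fell (-1.21, adjusted p = 0.000442), while Lrp6, the other co-receptor, did not pass and its groups overlapped (-0.25, SE 0.15, adjusted p = 0.203). Falls were also called for the R-spondin receptors Lgr6 (81.6 ± 8.04 against 306 ± 1.53 normalized counts, log2 fold change -1.90, adjusted p = 4.69e-05) and Lgr5 (2.80 ± 1.85 against 18.3 ± 4.41, log2 fold change -2.63, adjusted p = 0.00414), the latter passing the filter only through WT lungs and lying at -3.31 without TNF-Tg replicate 3. Lgr4, the other R-spondin receptor, did not pass and its groups overlapped (-0.41, SE 0.24, adjusted p = 0.197). Ror2, the receptor of Wnt5a, rose (0.80, adjusted p = 0.00393).

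Genes that make and carry the ligands were called in 7 of 10 (70%, against 47.4% of all genes, with 5 lower, 2 higher and a median of -0.52). Porcn, the enzyme that adds the lipid to every Wnt protein, fell (390.1 ± 34.3 against 964 ± 64.1 normalized counts, log2 fold change -1.31, adjusted p = 7.26e-05), as did Wls, which carries Wnt proteins to the surface (-0.58, adjusted p = 0.00335), and Reck and Adgra2, which serve Wnt7a and Wnt7b (-1.90, adjusted p = 4.21e-05, and -1.12, adjusted p = 0.000289). Tmed5, a cargo receptor, rose (1.18, adjusted p = 0.00104), and Tmed2, its relative, had a log2 fold change of 0.34 (adjusted p = 0.0378) and lost its call in 10 of 14 alternatives. Other inhibitors were called in 8 of 11 (72.7%, with 6 lower, 2 higher and a median of -0.72). Wif1, a secreted inhibitor (-2.06, adjusted p = 0.00567, -2.63 without TNF-Tg replicate 1 and -2.77 without replicate 1 of both genotypes), Notum, which removes the lipid (-1.48, adjusted p = 0.00148), and Shisa2, which retains Frizzled inside the cell (-1.29, adjusted p = 0.00422), fell. Frzb, the Sfrp relative also called Sfrp3, rose from 11.2 ± 1.08 to 37.3 ± 1.29 normalized counts (1.72, adjusted p = 0.00142), and Sost had 1.30 (adjusted p = 0.0429), a call lost in 7 alternatives.

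Of 19 genes of the beta-catenin chain 11 were called (57.9%, against 47.4% of all genes, with 9 lower, 2 higher and a median of -0.29). The largest falls were those of Bcl9l, a coactivator (-1.39, adjusted p = 2.04e-05), and Apc2 (-1.26, adjusted p = 0.00137). Of the higher calls, that of Ctnnbip1, an inhibitor that binds beta-catenin (0.78, adjusted p = 0.0063), was kept in all 14 alternatives. That of Axin1, a scaffold of the destruction complex (0.27, adjusted p = 0.0360), was lost in 10 of 14. Among these were the fits without WT replicate 1 (adjusted p = 0.119) and without TNF-Tg replicate 1 (adjusted p = 0.173). Among 15 target genes 13 were called (86.7%, with 10 lower, 3 higher and a median of -0.67). The target list shares Lgr5, Notum, Znrf3, Rnf43 and Apcdd1 with other lists, and of these all but Apcdd1 were called lower. Axin2, the feedback inhibitor read most often as a sign of beta-catenin signalling, had 365 to 402 normalized counts in TNF-Tg and 689 to 927 in WT lungs (log2 fold change -1.08, adjusted p = 0.000448). Nkd1 (-1.57, adjusted p = 2.34e-05), Lef1 (-1.11, adjusted p = 0.00116) and Tnfrsf19 (-2.17, adjusted p = 0.000105) fell too, while Myc, a target of many pathways, rose (1.06, adjusted p = 0.000629). The other higher calls, Nkd2 and Wisp1, were lost in 6 and 7 of 14 alternatives, and the groups of Wisp1 overlapped. Both were lost without WT replicate 1 (adjusted p = 0.103 and 0.121) and without TNF-Tg replicate 1 (adjusted p = 0.0983 and 0.162). Among 16 genes of the polarity and calcium branches 11 were called (68.75%, with 8 lower, 3 higher and a median of -0.29). Celsr2 (-1.90, adjusted p = 4.05e-05), Prickle1 (-1.87, adjusted p = 8.11e-05) and Prickle2 (-1.60, adjusted p = 0.000211) fell, and Celsr3 rose (1.93, adjusted p = 0.00167). Dact1 rose too (0.68, adjusted p = 0.0122), and the rise of Camk2a (0.87, adjusted p = 0.0322) lost its call in 5 of 14 alternatives.

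**Figure D4:**
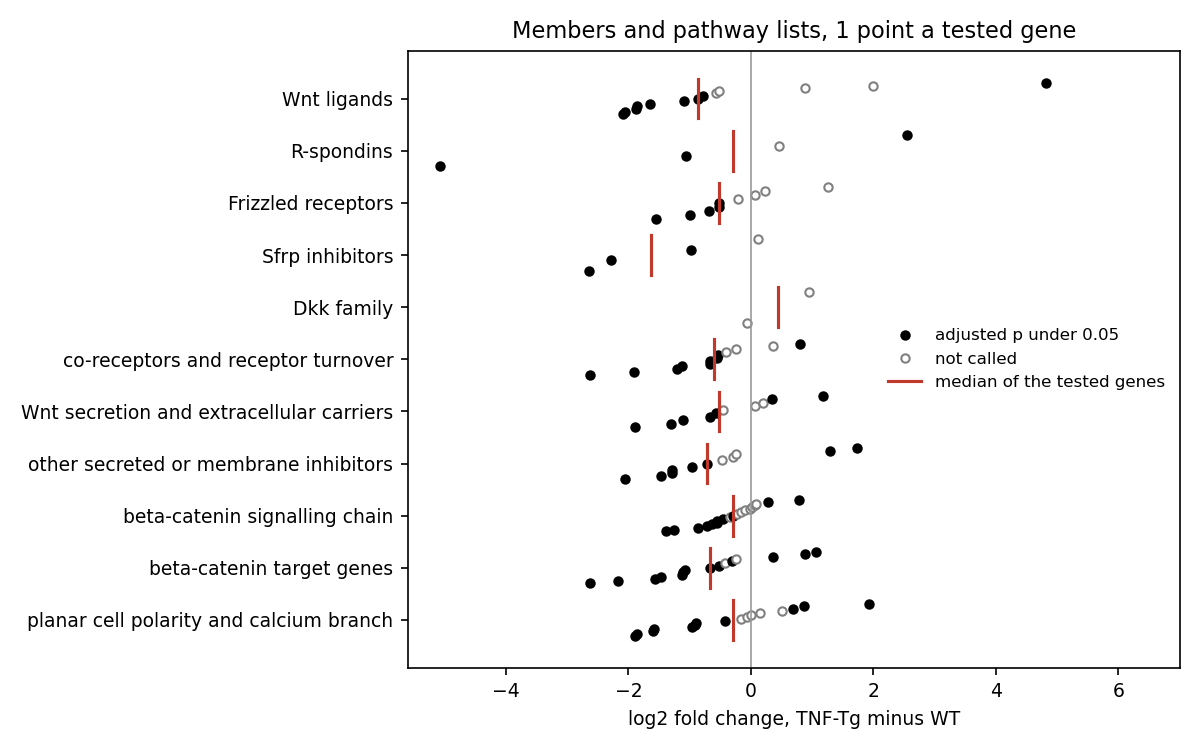
Log2 fold change (x axis, TNF-Tg minus WT) of every tested gene of the 5 member families and the 6 pathway lists, 1 point a gene, filled where the adjusted p was under 0.05, with the median of each row as a red line. The medians of all rows but the Dkk family (0.44 over 2 genes) lie left of 0, and each of the 6 pathway lists holds called genes on both sides.

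Markers of the cells that could supply these genes moved with the genotype. Of all tested genes 24% were called higher and 23.4% lower (18% and 19.8% without WT replicate 1). Alveolar type 1 markers fell in 6 of 6 (summed level 37546 to 45296 normalized counts in TNF-Tg and 111362 to 121474 in WT lungs), fibroblast markers in 7 of 8 (28616 to 29895 against 49580 to 76127), smooth muscle and pericyte markers in 5 of 7 (18588 to 20142 against 27793 to 35021), mesothelium markers in 4 of 6 and cardiac muscle markers in 6 of 6 (7715 to 9535 against 27063 to 37872). Alveolar type 2 markers fell in 2 of 6 (465507 to 601965 against 659174 to 800878). Macrophage markers rose in 6 of 6 (121435 to 184229 against 9426 to 10577), T cell markers in 5 of 6 (9931 to 14418 against 1154 to 2088, most of it Cd4 at 8082 to 12313 against 279.03 to 557, the other 5 genes summing to 1848 to 2105 against 875 to 1531) and B and plasma cell markers in 4 of 6 (60588 to 123981 against 3345 to 9978). Of the lists that could mark carried-over tissue, squamous epithelium genes fell in 3 of 5 tested, skeletal muscle genes in 3 of 7 and fat cell genes in 1 of 4. Without WT replicate 1 the falls were 2 of 5 for squamous epithelium (summed level 343 to 505 in TNF-Tg against 506 to 955) and 1 of 7 for skeletal muscle, whose summed levels then overlapped (471 to 1460 against 890 to 994), fibroblast markers fell in 5 of 8, and T cell markers rose in 3 of 6. No marker was at 0 in every lung. The part of these shifts in the falls of the 18 members and in the rises of Wnt6 and Rspo2 was not tested.

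Exons on the opposite strand overlapped those of 7 members, over 17.8% of the exon length of Fzd5, 16.1% of Sfrp2, 13.1% of Rspo3, 8.8% of Wnt11, 6.62% of Wnt7b, 4.58% of Wnt5a and 3.16% of Fzd6. The strand setting of the counting is not given in the sources used here, so reads of these stretches may belong to either gene. Read in the direction of the transcripts, no 100-base window of any of the 40 members occurred in a transcript of another gene. The opposite strand was not compared.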

How the data were processed

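Whole-lung poly(A) RNA of 3 TNF-Tg and 3 WT mice was sequenced from stranded libraries, single-end, 100 bases. Per the labels, the authors trimmed reads with Trimmomatic (0.36), aligned them to GRCm38.p5 with STAR (2.5.2b) and counted them with featureCounts. The table deposited by the authors holds unnormalized counts for each gene symbol in each mouse. The annotation and strand setting are not given in the sources used here. All 6 columns were matched to their mice by name, and 25396923 to 32529408 counts per lung set the precision.

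Counts were tested with edgeR (4.0.16, R 4.3.3): filterByExpr, TMM, the quasi-likelihood test of genotype with no further term, and p-values adjusted by Benjamini-Hochberg over 19199 genes at 0.05. The SE was obtained as the absolute log2 fold change over the square root of F. To normalize, each count was taken relative to its lung's TMM-scaled total and brought back to the mean of these totals. Levels per length used the TMM-scaled totals and the exon lengths of GENCODE M21. P-values measure the spread between mice. The alternatives were DESeq2 (1.42.0), its size factors, total counts, no filter, a robust dispersion, a filter of at least 10 counts in every lung, a replicate block, single lungs left out, replicate 1 of both genotypes left out, and an absolute log2 fold change of at least 1. The programs were tested on simulated counts.

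Every member was accounted for. From each pathway list up to 3 called genes with the largest change in each direction were eligible to be named, beside Axin2, Lgr5, Lgr6, Wif1, Frzb, Porcn, Wls and Lef1. Lrp6 and Lgr4 were added beside their relatives, and Znrf3, Rnf43 and Apcdd1 only because they stood in more than 1 list. Members and lists were chosen with earlier results of these data known. 1 further Wnt gene is not reported here.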

Additional observations from a re-analysis of the deposited data

How the results depend on the processing

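Without a minimum fold, 15 of the 20 called members kept direction and call in every alternative that tested them: 12 in all 14, and Rspo2, Rspo4 and Sfrp4 in 13, since they were not tested with at least 10 counts in every lung. Fzd2, Fzd8, Rspo1, Sfrp5 and Wnt5a lost the call under at least 1. Of the 12 not called, Dkk2, Fzd5, Fzd10, Wnt10a and Wnt11 passed under at least 1. When calls also needed an absolute log2 fold change of at least 1, 13 members (2 higher, 11 lower), 26 pathway genes (5 higher, 21 lower) and 4320 of all genes (22.5%) were left, and Fzd4, Fzd7, Sfrp1 and Wnt9a were among the members under it. DESeq2 called 22 members (3 higher, 19 lower, with 39.5% of all genes called), edgeR with total counts only 19 (42.1%), and a filter of at least 10 counts in every lung 16 of 25 tested (49%). With each lung left out in turn, 17 to 21 members, 45 to 53 pathway genes and 7347 to 9164 of all genes were called. Some uncalled genes near 0 changed sign: the log2 fold change of Dkk3 was between -0.19 and 0.016 with single lungs left out (0.016 without WT replicate 1) and 0.049 without replicate 1 of both genotypes, that of Sfrp2 was between -0.042 (without TNF-Tg replicate 1) and 0.32 (-0.0099 without TNF-Tg replicate 3) and -0.073 without replicate 1 of both genotypes, and that of Wnt9b was between -0.20 (without TNF-Tg replicate 2) and 1.26, and the cause was not tested. With a replicate block in the fit, 17 members (2 higher, 15 lower), 48 pathway genes and 7686 of all genes (40%) were called, and Fzd2 (adjusted p = 0.087), Wnt5a (0.0723) and Sfrp5 (0.0506) lost the call. Same-numbered mice did not deviate together (correlations of -0.15, -0.0043 and -0.24 across genes), so the numbers were not taken as pairs. Depth limited Rspo2, Rspo4, Sfrp4, Sfrp5, Fzd10, Wnt9b and Wnt10a, which had 10 or fewer counts in 2 or more lungs of 1 genotype.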
